A study of Mus musculus with 27 samples.

Results

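The genes described here are 10 components of the unfolded protein response and the integrated stress response (Atf4, Ddit3, Atf3, Trib3, Chac1, Asns, Ppp1r15a, Hspa5, Xbp1 and Herpud1), chosen by their gene names among the 54532 genes of the count tables. Their mRNAs were measured by RNA-seq of spleen B cells from C57BL6 WT mice. The cells had been purified by negative selection and were kept in culture for 3 h. In experiment 1, B cells were left unstimulated, stimulated with lipopolysaccharide (LPS, a T-independent stimulus) or stimulated with IL-4+anti-CD40 (a T-dependent stimulus), and the stimulated cells were cultured with no inhibitor (DMSO) or with 1 μM disulfiram (DSF, an anti-alcoholism drug), with 4 libraries for each of the 5 groups. Experiment 2 held 1 library for each of the same 5 conditions and for each stimulus with 1 μM ibrutinib, an inhibitor of Bruton's tyrosine kinase (BTK). The labels do not say which libraries came from separate mice, so the p-values below measure the spread between these libraries, which may be technical.

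The unfolded protein response is started when misfolded proteins build up in the endoplasmic reticulum (ER), and it has 3 sensors in the ER membrane. IRE1 splices Xbp1 mRNA, which lets it encode the transcription factor XBP1. ATF6 is cut in the Golgi to release a transcription factor. PERK phosphorylates the translation initiation factor eIF2α. Phosphorylation of eIF2α slows protein synthesis in general and favours translation of Atf4 mRNA. It is also the step at which other kinases, activated by amino acid shortage, haem shortage or double-stranded RNA, enter the pathway, and this common part is called the integrated stress response. ATF4 drives genes of amino acid supply and of stress signalling, whereas XBP1 and ATF6 drive genes of folding, ER-associated degradation (ERAD) and secretion. In B cells XBP1 is known for its need in the formation of antibody-secreting plasma cells. Gene counts do not separate spliced from unspliced Xbp1 mRNA and do not measure ATF4 protein.

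The 10 genes fall into 3 roles. ATF4 is the transcription factor of the integrated stress response. Ddit3, Atf3, Trib3, Chac1, Asns and Ppp1r15a were taken as its targets. Hspa5, Xbp1 and Herpud1 were taken as targets of XBP1 and ATF6, although ATF4 is known to contribute to Herpud1 and Hspa5 as well. A second row with the symbol Ddit3 held 0 counts in every library, and the values below are those of the other Ddit3 row. Each gene had at least 10 counts in every library of experiment 1.

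Short promoter stretches show how the groups differ in the sequences that these factors bind. The window from 250 bases before to 50 bases after the RefSeq transcription start (GRCm38.p6) was searched on both strands for 5 motifs. These were the C/EBP-ATF response element bound by ATF4 (CARE, TGATGNAA), the cyclic AMP response element (CRE, TGACGTCA), the ER stress response element bound by ATF6 (ERSE, which is CCAAT, any 9 bases and CCACG), its shorter form ERSE-II (ATTGG, any 1 base and CCACG) and the unfolded protein response element bound by XBP1 (UPRE, TGACGTGG). CARE was in 3.97% of all 32851 windows, CRE in 1.79%, UPRE in 0.676%, ERSE in 0.119% and ERSE-II in 0.0365%. Among the 10 genes, CARE was in the windows of Atf3, Trib3, Chac1, Asns and Herpud1, CRE in that of Ppp1r15a, ERSE in that of Hspa5 and ERSE-II in that of Herpud1. Atf4, Ddit3 and Xbp1 had no match, which says only that these letters were not in the window. The stretches are written 5′ to 3′ on the gene's strand with the motif in capitals, and some motifs are read on the opposite strand.
Atf3, CARE: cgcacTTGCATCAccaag
Chac1, CARE: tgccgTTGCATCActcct
Asns, CARE: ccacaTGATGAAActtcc
Ppp1r15a, CRE: tccggTGACGTCAgcac
Hspa5, ERSE: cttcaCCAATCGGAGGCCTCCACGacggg
Herpud1, ERSE-II: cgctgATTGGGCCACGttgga
Herpud1, CARE: gcgggTTGCATCAgcccg

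These stretches lie at chr1:191183431-191183448 (minus strand) for Atf3, chr2:119351044-119351061 (plus) for Chac1, chr6:7693220-7693237 (minus) for Asns, chr7:45526269-45526285 (minus) for Ppp1r15a, chr2:34772020-34772048 (plus) for Hspa5, and chr8:94386372-94386392 and chr8:94386312-94386329 (plus) for Herpud1. In the GENCODE annotation the stretches of Chac1, Ppp1r15a and Herpud1 lie upstream of the gene, that of Atf3 lies in an intron of a longer Atf3 transcript, and those of Asns and Hspa5 lie in the UTR of a longer transcript. The 2 Herpud1 stretches are shown because its window held letter matches to both CARE and ERSE-II; binding was not measured.

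Total counts were 17804851 to 23632992 in experiment 1 and 16049295 to 24619776 in experiment 2. The 4 unstimulated libraries fell into pairs. Of the 15575 genes compared, 14.2% had an unstimulated range of 2-fold or more, against 2.25% to 5.77% in the other groups. Unstimulated replicates 1 and 2 had 12.8 times the mean Atf3, 12.3 times the mean Trib3 and 8.46 times the mean Chac1 of replicates 3 and 4, but 0.925 times the mean Ppp1r15a. Of the marker lists, the sum of the B cell genes was lower in replicates 1 and 2 (5389 and 5293 against 8127 and 8024 CPM, counts scaled to library depth), as were those of the myeloid genes (537 and 520.5 against 607 and 626 CPM), T cell genes (33.9 and 34.5 against 42.8 and 43.0 CPM) and erythroid genes (at most 2.76 against at least 12.02 CPM). The neutrophil sum was higher (37.1 and 35.7 against 7.35 and 10.9 CPM), while the plasma cell sum (308, 317, 279 and 339 CPM) and the NK cell sum did not separate the pairs. Within the plasma cell list, Sdc1 (57.2 and 56.5 against 18.3 and 19.7 CPM) and Prdm1 (22.6 and 26.6 against 6.15 and 6.39 CPM) were higher in replicates 1 and 2. Jchain, the largest part of that sum, was lower (228 and 233 against 254 and 312 CPM). Single genes could go against their list. The T cell sum was mostly Lck (26.4 and 26.8 against 39.2 and 39.5 CPM). The other T cell genes were higher in replicates 1 and 2, such as Trac (2.83 and 2.47 against 0.759 and 0.569 CPM). The myeloid sum was mostly Lyz2 (367 and 353 against 510 and 533 CPM). Its members Csf1r (109 and 106 against 69.9 and 65.3 CPM), Adgre1 and Cd14 (30.3 and 31.2 against 1.36 and 1.75 CPM) were higher in replicates 1 and 2. The part of these differences in the results below was not tested, so each comparison with unstimulated cells that turned on them is given without either pair.

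The IL-4+anti-CD40 libraries without DSF showed a smaller split between the same numbers. A chi-square per gene was 3.49 and 6.41 within replicates 1 and 2 and within 3 and 4, and 15.6 to 27.2 between them, against 2.86 and 6.64 within and 84.8 to 90.7 between the unstimulated pairs. Among the IL-4+anti-CD40+DSF libraries it was 3.79 and 6.28 within and 5.56 to 10.5 between. Comparisons that use the IL-4+anti-CD40 libraries without DSF were therefore repeated without either pair of these. Values for the named genes are given where a call or the direction changed or the fold moved by over 1.5 times. Every library with DSF was kept in these repeats, so the compared groups no longer held the same replicate numbers.

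The B cell markers (6 of 6 genes detected) summed to 2885 to 8127 CPM in the libraries of experiment 1. The myeloid list summed to 520.5 to 625.5 CPM in unstimulated cells and to 137 to 263 CPM in the stimulated groups. T cell markers summed to at most 43.0 CPM and NK cell markers to at most 4.43 CPM. Of the T cell genes, Cd4 was under 1 CPM in every library, while Cd3e, Cd3g and Trac reached 2.04, 1.93 and 5.44 CPM. Fewer cells of a type and less RNA per cell cannot be told apart in such bulk samples.

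In experiment 1, DSF raised 9 of the 10 genes in LPS-stimulated cells (adjusted p under 0.05, edgeR quasi-likelihood test over 14154 genes). In these cells 71.1% of all genes tested were called, 35.1% higher and 36.0% lower. In IL-4+anti-CD40-stimulated cells DSF raised 6 of the 10 and lowered Asns, against 61.8% of 14275 genes called, 30.1% higher and 31.6% lower. The 5 genes that rose most in LPS were Atf3, Ddit3, Ppp1r15a, Herpud1 and Xbp1, and in IL-4+anti-CD40 the 3 that rose most were Atf3, Ppp1r15a and Ddit3. When libraries were scaled by total counts in place of TMM, the calls over all genes shifted to 24.5% higher and 47.2% lower in LPS and 22.9% higher and 40.9% lower in IL-4+anti-CD40. Under this scaling the median over all genes went from 0.002 to -0.206 in LPS and from -0.015 to -0.164 in the other stimulus (log2 scale).

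**Figure D1:**
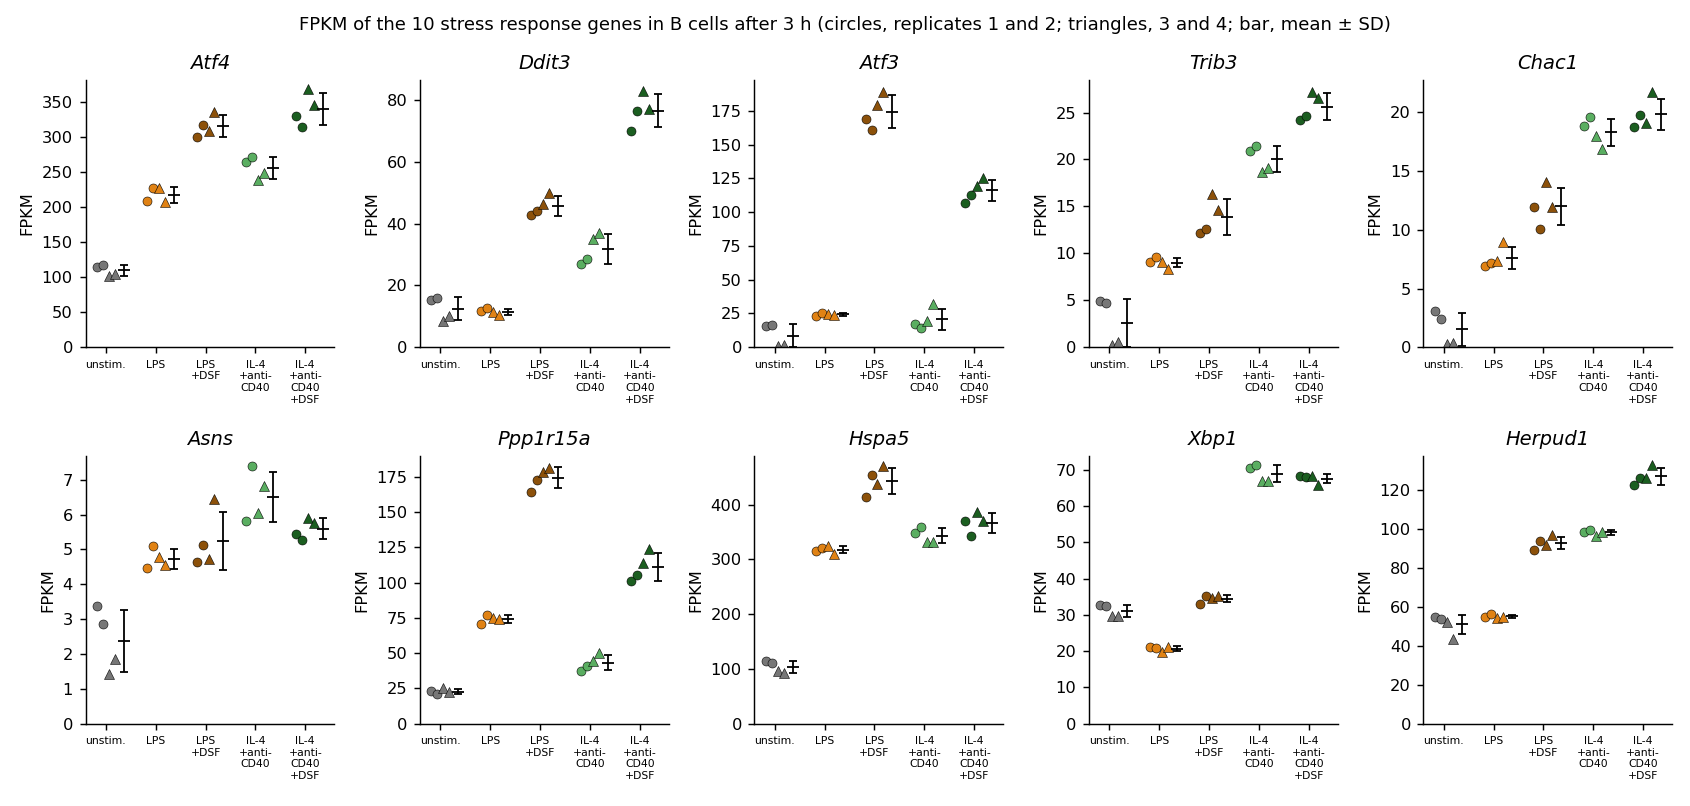
Level of each of the 10 genes in FPKM (y axis, linear) in the 5 groups of experiment 1 (x axis). Circles are replicates 1 and 2, triangles replicates 3 and 4, and bars the mean ± SD of 4 libraries. Atf3 and Ppp1r15a were highest in LPS+DSF, Ddit3 and Herpud1 in IL-4+anti-CD40+DSF, and Asns in IL-4+anti-CD40 without DSF. The unstimulated libraries of Atf3, Trib3 and Chac1 split into pairs.

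Atf4 mRNA was already abundant in unstimulated B cells, and rose with each stimulus and again with DSF. Its level was 114, 118, 101 and 105 FPKM (a scale normalized by gene length and library depth) in unstimulated libraries. It was 208, 228, 227 and 207 FPKM in LPS and 300.0, 318, 309 and 336 FPKM in LPS+DSF. It was 264, 272, 239 and 248 FPKM in IL-4+anti-CD40 and 331, 314, 368 and 345 FPKM in IL-4+anti-CD40+DSF. Within each stimulus the groups with and without DSF did not overlap, while the 2 groups with DSF overlapped each other. DSF raised Atf4 by a log2 fold change of 0.56 ± 0.04 (SE, n = 4 per group, 1.47-fold, edgeR adjusted p = 3.621e-11) in LPS and 0.39 ± 0.06 (1.31-fold, adjusted p = 0.0002427) in IL-4+anti-CD40.

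Ddit3 encodes CHOP, a transcription factor that promotes death of cells under lasting ER stress. Its levels were 15.4, 15.9, 8.41 and 10.2 FPKM in unstimulated libraries, 11.7, 12.7, 11.3 and 10.3 FPKM in LPS and 42.7, 44.2, 46.3 and 49.8 FPKM in LPS+DSF. They were 27.1, 28.5, 35.0 and 36.9 FPKM in IL-4+anti-CD40 and 69.9, 76.6, 82.9 and 77.1 FPKM in IL-4+anti-CD40+DSF. LPS alone thus left Ddit3 within the unstimulated range, and each of the 4 libraries with LPS+DSF lay above all without DSF. The DSF log2 fold change was 2.01 ± 0.06 in LPS (4.02-fold, edgeR adjusted p = 4.023e-19) and 1.24 ± 0.10 in IL-4+anti-CD40 (2.37-fold, adjusted p = 2.383e-06). Ddit3 overlaps Mars, on the opposite strand, and the strand setting of the counting is not given in the sources used here. Mars reads went the other way under DSF (log2 fold change -0.39 in LPS and -0.54 in IL-4+anti-CD40).

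Atf3, an early stress-induced transcription factor, had the largest DSF response of the 10. Its levels were 15.6, 16.2, 1.01 and 1.47 FPKM in unstimulated libraries, 23.3, 25.3, 24.8 and 23.6 FPKM in LPS and 169, 161, 179 and 189 FPKM in LPS+DSF. With IL-4+anti-CD40 they were 17.5, 14.0, 19.4 and 31.8 FPKM, and 107, 113, 120 and 125 FPKM once DSF was added. The libraries with DSF were far above the others under both stimuli, and within IL-4+anti-CD40 replicate 4 was the highest. The log2 fold change by DSF was 2.86 ± 0.05 in LPS (7.28-fold, edgeR adjusted p = 4.018e-24) and 2.47 ± 0.21 in IL-4+anti-CD40 (5.53-fold, adjusted p = 2.619e-06).

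Ppp1r15a encodes GADD34, the subunit that directs a phosphatase to eIF2α and so ends the response. It had 22.8, 20.9, 24.98 and 22.2 FPKM in unstimulated libraries, 70.8, 77.3, 75.2 and 74.5 FPKM in LPS and 165, 173, 178 and 182 FPKM in LPS+DSF. It had 37.6, 41.0, 44.1 and 50.4 FPKM in IL-4+anti-CD40 and 101, 105, 114 and 124 FPKM in IL-4+anti-CD40+DSF. No 2 of the 5 groups overlapped. Its response to DSF was 1.25 ± 0.04 (log2 scale, 2.37-fold, edgeR adjusted p = 1.11e-18) in LPS and 1.34 ± 0.09 (2.53-fold, adjusted p = 1.311e-06) in IL-4+anti-CD40. Ppp1r15a overlaps Tulp2 on the opposite strand, under the same doubt on strand as Ddit3, and Tulp2 had 20 to 129 counts per library against 1489 to 9724 for Ppp1r15a. Unlike Atf3, Trib3 and Chac1, Ppp1r15a did not separate the pairs of unstimulated libraries.

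Trib3 and Chac1 are late targets of ATF4 and CHOP. TRIB3 is a pseudokinase that restrains ATF4 and AKT signalling, and CHAC1 breaks down glutathione. Trib3 had 4.90, 4.69, 0.247 and 0.536 FPKM in unstimulated libraries, 9.04, 9.56, 9.10 and 8.33 FPKM in LPS, 12.2, 12.6, 16.3 and 14.6 FPKM in LPS+DSF, 20.9, 21.5, 18.6 and 19.1 FPKM in IL-4+anti-CD40 and 24.3, 24.7, 27.1 and 26.5 FPKM in IL-4+anti-CD40+DSF. Chac1 had 3.04, 2.40, 0.296 and 0.348 FPKM unstimulated, 6.96, 7.14, 7.31 and 8.97 FPKM in LPS, 11.9, 10.1, 14.0 and 11.9 FPKM in LPS+DSF, 18.9, 19.6, 18.0 and 16.9 FPKM in IL-4+anti-CD40 and 18.7, 19.8, 19.1 and 21.7 FPKM in IL-4+anti-CD40+DSF. Both were higher in IL-4+anti-CD40 without DSF than in LPS with it, the reverse of the order seen for Atf3 and Ppp1r15a, and the levels with and without DSF overlapped for Chac1 in IL-4+anti-CD40. In LPS, DSF raised Trib3 by 0.64 ± 0.08 and Chac1 by 0.68 ± 0.10 on the log2 scale (edgeR adjusted p = 2.044e-07 and 1.522e-06). In IL-4+anti-CD40 it raised Trib3 by 0.34 ± 0.07 (adjusted p = 0.0008646), and the Chac1 difference of 0.09 ± 0.07 did not pass the test (adjusted p = 0.2711). When all 20 libraries shared 1 estimate of the spread, Trib3 lost its call under both stimuli (adjusted p = 0.2168 and 0.4344) and Chac1 in LPS (adjusted p = 0.1041).

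Asns, asparagine synthetase, is the standard readout of amino acid shortage and differed from the other ATF4 targets. It had 3.37, 2.86, 1.43 and 1.86 FPKM in unstimulated libraries, 4.46, 5.09, 4.77 and 4.57 FPKM in LPS and 4.63, 5.12, 4.73 and 6.44 FPKM in LPS+DSF. It had 5.82, 7.38, 6.05 and 6.82 FPKM in IL-4+anti-CD40 and 5.46, 5.26, 5.91 and 5.76 FPKM in IL-4+anti-CD40+DSF. All 16 stimulated libraries lay above the unstimulated ones, and the groups with DSF overlapped those without. The DSF difference in LPS was 0.17 ± 0.10 on the log2 scale (edgeR adjusted p = 0.136) and -0.24 ± 0.09 in IL-4+anti-CD40 (adjusted p = 0.0432). The call in IL-4+anti-CD40 was lost with DESeq2 (adjusted p = 0.06419) and when IL-4+anti-CD40 replicate 2 or 4 or IL-4+anti-CD40+DSF replicate 1, 2 or 4 was left out (adjusted p = 0.1569, 0.08521, 0.08881, 0.1111 and 0.06667). It was also lost without IL-4+anti-CD40 replicates 1 and 2 (adjusted p = 0.09378) or 3 and 4 (adjusted p = 0.07106).

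Hspa5 encodes BiP, the main chaperone of the ER and a target of ATF6 and XBP1. Its levels were 115, 111, 95.7 and 91.6 FPKM in unstimulated libraries, 316, 320.0, 325 and 310.0 FPKM in LPS and 414, 454, 437 and 470 FPKM in LPS+DSF. They were 349, 360, 333 and 333 FPKM in IL-4+anti-CD40 and 369, 343, 386 and 371 FPKM in IL-4+anti-CD40+DSF. Hspa5 had the highest FPKM of the 10 genes in each stimulated group, and both stimuli took it above the unstimulated range before DSF was added. DSF raised it further in LPS, by 0.50 ± 0.04 on the log2 scale (1.42-fold, edgeR adjusted p = 1.033e-10), while the difference of 0.08 ± 0.05 in IL-4+anti-CD40, where the groups overlapped, did not pass (adjusted p = 0.2467).

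Xbp1, which encodes the transcription factor that IRE1 activates, was lowered by LPS and raised by IL-4+anti-CD40. It had 32.7, 32.3, 29.6 and 29.6 FPKM in unstimulated libraries, 21.2, 20.9, 19.6 and 21.1 FPKM in LPS and 33.0, 35.1, 34.7 and 35.1 FPKM in LPS+DSF. It had 70.6, 71.2, 67.0 and 66.8 FPKM in IL-4+anti-CD40 and 68.3, 68.1, 68.2 and 65.8 FPKM in IL-4+anti-CD40+DSF. With LPS+DSF the level was thus just above the unstimulated range, and with IL-4+anti-CD40 it was about the same with and without DSF, the groups overlapping. DSF raised Xbp1 by 0.75 ± 0.04 (log2 scale, 1.69-fold, edgeR adjusted p = 6.507e-14) in LPS, and its difference in IL-4+anti-CD40 was -0.05 ± 0.04 (adjusted p = 0.3628, and 0.002214 at -0.196 with total counts).

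Herpud1 encodes a membrane protein of the ERAD machinery. It had 54.7, 53.7, 52.2 and 43.7 FPKM in unstimulated libraries, 54.6, 56.5, 54.4 and 54.9 FPKM in LPS and 89.3, 93.7, 92.1 and 96.9 FPKM in LPS+DSF. It had 98.6, 99.8, 96.6 and 98.6 FPKM in IL-4+anti-CD40 and 123, 126, 127 and 133 FPKM in IL-4+anti-CD40+DSF. DSF set every library apart from those without it under both stimuli, and Herpud1 was the only XBP1 and ATF6 target among the 10 that passed the test in both. Its log2 fold change was 0.77 ± 0.04 in LPS (1.71-fold, edgeR adjusted p = 5.222e-15) and 0.35 ± 0.04 in IL-4+anti-CD40 (1.27-fold, adjusted p = 4.188e-05). Its promoter window holds the letter matches to CARE and ERSE-II shown above, and their part in its response was not tested.

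**Figure D2:**
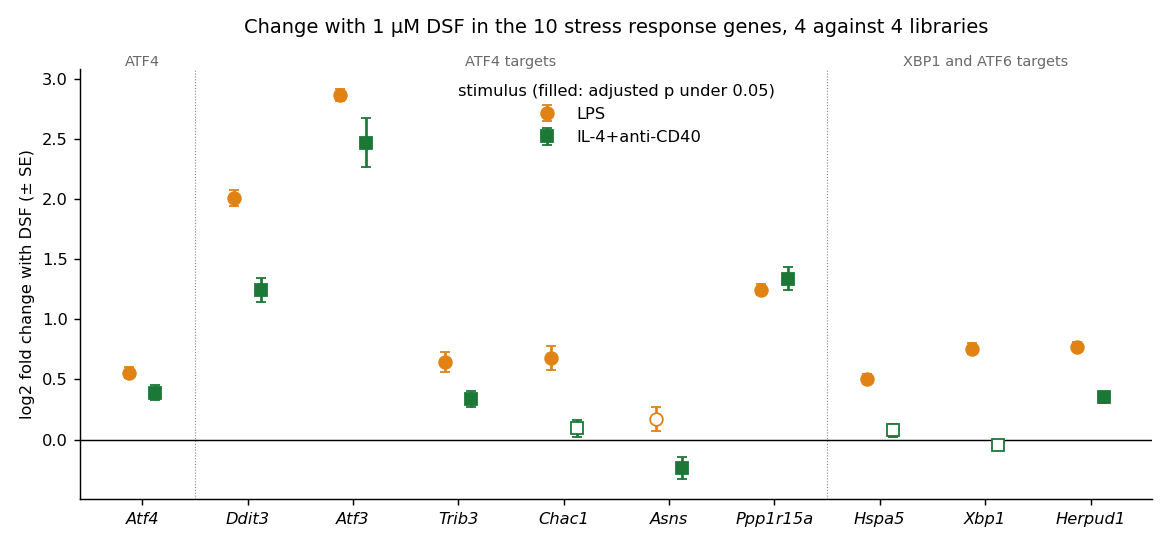
Log2 fold change by DSF (y axis, ± SE) of the 10 genes in LPS and in IL-4+anti-CD40 (n = 4 libraries per group), with filled points for adjusted p under 0.05. Atf3 reached 2.86 and 2.47, whereas Xbp1 was 0.75 in LPS and -0.05 in IL-4+anti-CD40.

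The DSF response differed between the stimuli for 5 of the 10 genes, each with a larger log2 fold change in LPS than in IL-4+anti-CD40 (interaction term of edgeR over 16 libraries, in which 14.9% of 15130 genes were called, 7.92% in this direction). The difference was 0.80 for Xbp1 (adjusted p = 3.855e-08), 0.76 for Ddit3 (adjusted p = 0.0003632), 0.58 for Chac1 (adjusted p = 0.005215) and 0.42 for both Hspa5 (adjusted p = 0.0002351) and Herpud1 (adjusted p = 5.809e-05). All 3 targets of XBP1 and ATF6 were among them, with 2 of the 6 ATF4 targets. The wider lists, counted below, did not share this split. There 24 ATF4, 1 XBP1 and 4 ATF6 targets were larger in LPS, and 1, 3 and 0 smaller, in the same fit. For Ppp1r15a the difference was -0.10 ± 0.11 (adjusted p = 0.6033, and 0.03 without IL-4+anti-CD40 replicates 1 and 2 or -0.24 without 3 and 4, adjusted p = 0.8607 and 0.05993) and for Atf4 0.16 ± 0.08 (adjusted p = 0.1953). With all 20 libraries in one fit Xbp1, Hspa5 and Herpud1 still passed, and Ddit3 (adjusted p = 0.06262) and Chac1 (adjusted p = 0.5932) did not. Atf3 (0.39, adjusted p = 0.2428) passed without IL-4+anti-CD40 replicate 2 (adjusted p = 0.04726) and without replicates 1 and 2 (0.69, adjusted p = 0.001667), and was -0.01 (adjusted p = 0.9799) without replicates 3 and 4. Trib3 passed without IL-4+anti-CD40 replicates 3 and 4 (0.38, adjusted p = 0.02387) and without LPS+DSF replicate 1 (0.36, adjusted p = 0.03913), as did Asns (0.46, adjusted p = 0.04615), which also passed without IL-4+anti-CD40 replicate 1 (0.45, adjusted p = 0.04086).

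Other targets of the same factors were then counted from lists that left out the 10 genes. Of all genes tested, DSF raised 35.1% and lowered 36.0% in LPS, and raised 30.1% and lowered 31.6% in IL-4+anti-CD40. In LPS, DSF raised 26 and lowered 9 of 42 ATF4 targets (median log2 fold change 0.291, against 0.002 for all genes tested). It raised 9 and lowered 12 of 28 XBP1 targets (median -0.05) and raised 8 and lowered 6 of 16 ATF6 targets (median 0.12). In IL-4+anti-CD40 it raised 15 and lowered 20 ATF4 targets (median -0.088, against -0.015 for all genes), raised 9 and lowered 9 XBP1 targets (median -0.073, with 4 lowered without IL-4+anti-CD40 replicates 1 and 2 and 14 without 3 and 4) and raised 4 and lowered 7 ATF6 targets (median -0.105). No list was tested as a set, so these counts and medians describe the lists and show no difference between them. With all 20 libraries in one fit, 15 ATF4 targets rose and 4 fell in LPS, and 9 rose and 9 fell in IL-4+anti-CD40. In that fit 27.5% of all genes were higher and 29.2% lower in LPS, and 29.2% higher and 24.1% lower in IL-4+anti-CD40.

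**Figure D3:**
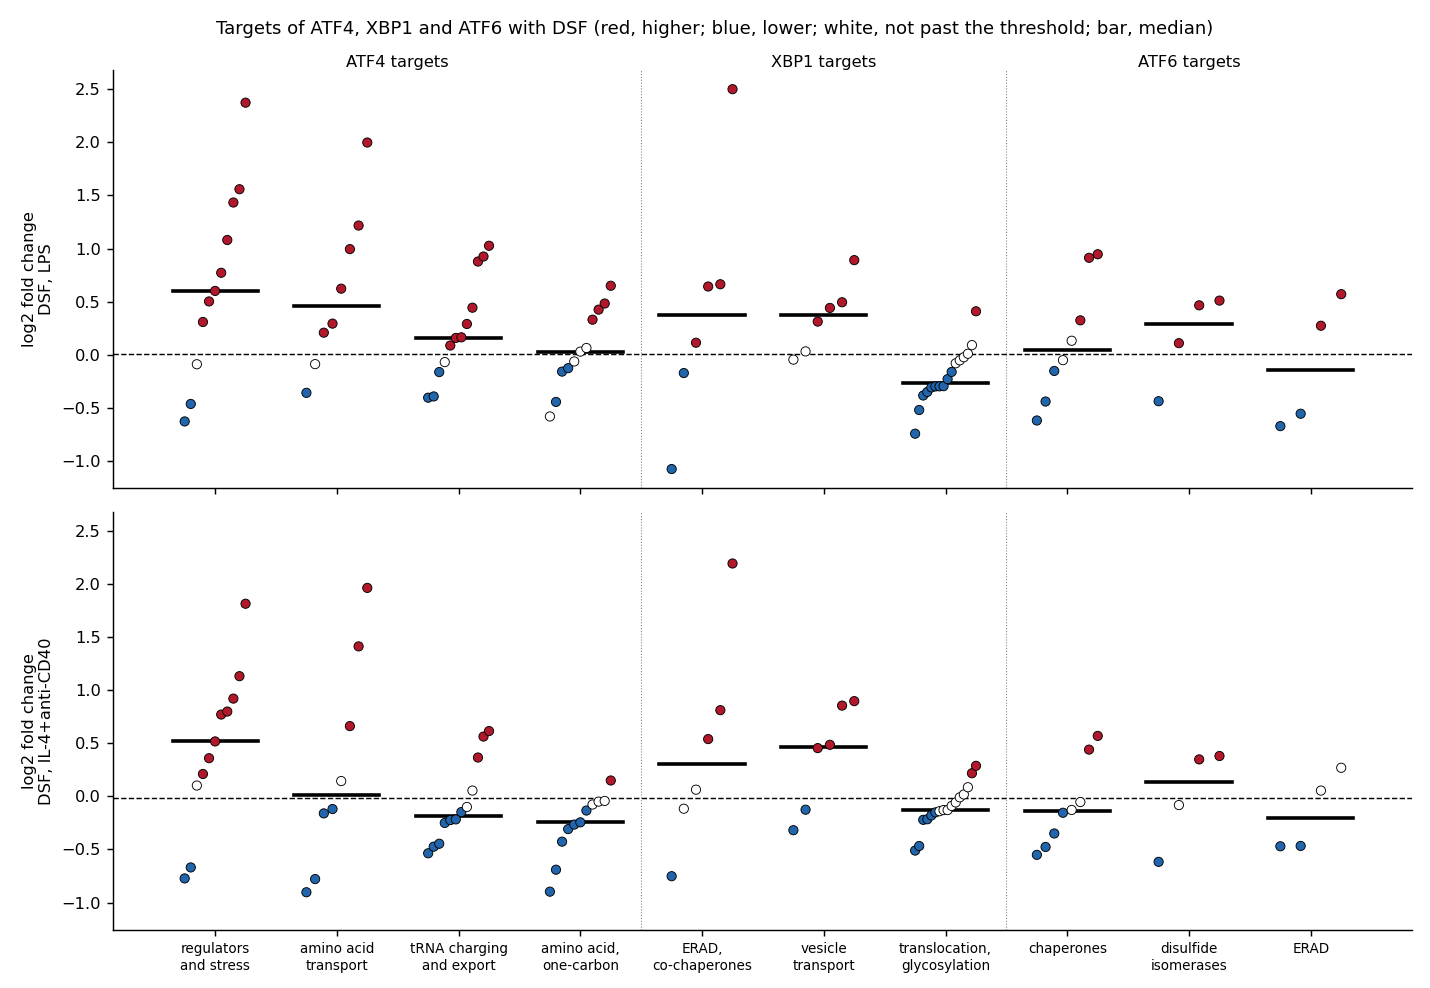
Log2 fold change by DSF (y axis) of each target of ATF4 (n = 42), XBP1 (n = 28) and ATF6 (n = 16), without the 10 genes, in LPS and in IL-4+anti-CD40. Red points rose, blue points fell, white points were not called, bars are list medians and the dashed line is the median of all genes tested. The ATF4 targets lie highest in LPS, with a median of 0.291.

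The ATF4 list was not uniform. For reference, 35.1% of all genes were higher and 36.0% lower in LPS, and 30.1% higher and 31.6% lower in IL-4+anti-CD40. Of 11 regulators and stress genes, 8 rose and 2 fell in LPS (median 0.601), and 8 rose and 2 fell in IL-4+anti-CD40 (median 0.518). These were not all the same genes: 7 rose under both stimuli, Ero1l fell under both, and Nupr1 fell in LPS (-0.46) and rose in IL-4+anti-CD40 (0.77). Enzymes of amino acid and one-carbon synthesis rose in 4 and fell in 3 of 11 in LPS (median 0.029) and rose in 1 and fell in 7 in IL-4+anti-CD40 (median -0.245). Amino acid transporters rose in 6 and fell in 1 of 8 in LPS, and rose in 3 and fell in 4 in IL-4+anti-CD40. Genes of tRNA charging and export rose in 8 and fell in 3 of 12 in LPS, and rose in 3 and fell in 7 in IL-4+anti-CD40. In IL-4+anti-CD40 the enzymes and the tRNA genes thus had more members lower than higher, the transporters were divided, and 31.6% of all genes tested were lower. With all 20 libraries in one fit the ATF4 targets called lower there went from 20 to 9, and the share of all genes called lower went from 31.6% to 24.1%.

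Of the ATF4 targets, 14 rose and 8 fell under both stimuli (25.8% and 27.4% of the 13736 genes tested in both), each with an edgeR adjusted p under 0.05 in both comparisons, and the leading ones of each list were ranked by the smaller of their 2 changes. Gdf15, a secreted stress cytokine, rose by log2 fold changes of 2.37 in LPS and 1.82 in IL-4+anti-CD40, but from low counts: 8, 9, 7 and 8 reads in IL-4+anti-CD40 and 12, 20, 41 and 44 with DSF. Slc3a2, the heavy chain of several amino acid transporters, had 54.1, 55.3, 58.2 and 55.0 FPKM in LPS and 210, 207, 227 and 234 FPKM with DSF (2.00 in LPS and 1.41 in IL-4+anti-CD40, log2 scale). Slc7a11, its cystine transporter partner, had 3.66, 3.53, 4.49 and 4.01 FPKM in LPS and 9.57, 8.36, 8.77 and 9.23 FPKM with DSF (1.22 and 1.96). Its call in LPS was lost with all 20 libraries in one fit (edgeR adjusted p = 0.1486). Slc7a11 varied more in IL-4+anti-CD40, with 0.498, 0.400, 0.854 and 1.60 FPKM without and 1.87, 2.68, 4.19 and 4.46 FPKM with DSF. Its change there was 1.42 without IL-4+anti-CD40 replicates 1 and 2 and 2.87 without 3 and 4. The libraries with DSF, also lower in replicates 1 and 2, were all kept in both, so these values do not compare like pairs. Cebpg, the C/EBP partner of ATF4 in binding DNA, went from 10.7 to 12.4 FPKM in LPS to 29.8 to 32.7 FPKM (1.43 and 0.92). The ones that fell were Ero1l, an ER oxidase (-0.63 and -0.67), Shmt2, a mitochondrial enzyme of one-carbon metabolism (-0.45 and -0.69), and the tRNA synthetases Wars (-0.41 and -0.47) and Mars (-0.39 and -0.54). Shmt2 had 106 to 120 FPKM in LPS and 78.4 to 85.3 FPKM with DSF, with no overlap.
Slc7a11, CARE: gtggcTGATGCAAacctg

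The Slc7a11 stretch (chr3:50443667-50443684, minus strand, upstream of the gene) is shown as an example of a CARE in a gene named above. Of the 36 ATF4 targets with a promoter window, 13 held a CARE. Of these 13, 7 rose and 3 fell with DSF in LPS, and 4 rose and 6 fell in IL-4+anti-CD40, with 2 not tested. With DSF, 35.1% of all genes were higher and 36.0% lower in LPS, and 30.1% higher and 31.6% lower in IL-4+anti-CD40. Pck2 (-0.13 and -0.27) and Slc1a4 (-0.36 and -0.78) fell under both, so carriers went in both directions. The XBP1 targets with a window (21 genes) held none.

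The ERAD genes and co-chaperones of the XBP1 list rose in 4 and fell in 2 of 6 in LPS (median 0.378) and rose in 3 and fell in 1 in IL-4+anti-CD40 (median 0.302). The shares over all genes were 35.1% higher and 36.0% lower in LPS, and 30.1% higher and 31.6% lower in IL-4+anti-CD40. Vesicle transport genes rose in 4 of 6 in LPS, and rose in 4 and fell in 2 in IL-4+anti-CD40. Translocation and glycosylation genes, which feed proteins into the ER, rose in 1 and fell in 10 of 16 in LPS (median -0.263) and rose in 2 and fell in 6 in IL-4+anti-CD40 (median -0.129). Dnajb9, a BiP co-chaperone also called ERdj4, stood apart with 20.1, 20.4, 21.5 and 22.4 FPKM in LPS and 115, 113, 117 and 127 FPKM with DSF. It had 16.7, 17.3, 24.6 and 34.8 FPKM in IL-4+anti-CD40 and 108, 100.2, 117 and 109 FPKM with DSF. Its log2 fold changes were 2.50 and 2.19. The next were Arfgap3, a regulator of Golgi vesicles (0.89 and 0.86), and the ERAD genes Edem1 (0.64 and 0.81) and Derl1 (0.66 and 0.54). Edem2, a mannosidase of ERAD, fell (-1.08 and -0.75), as did Ostc of the oligosaccharyltransferase (-0.74 and -0.51) and Spcs3 of the signal peptidase (-0.52 and -0.47). Srprb of the signal recognition particle receptor also fell (-0.30 and -0.22). Its call in IL-4+anti-CD40 was lost without IL-4+anti-CD40 replicates 1 and 2 (edgeR adjusted p = 0.3936) and with all 20 libraries in one fit (edgeR adjusted p = 0.2897). It was also lost with DESeq2 (adjusted p = 0.06638), with a replicate block and without some single libraries. Genes of the same ERAD family, Edem1 and Edem2, thus moved in opposite directions.

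Among the ATF6 targets, the chaperones Calr (0.95 in LPS and 0.57 in IL-4+anti-CD40, log2 scale) and Hsp90b1 (0.91 and 0.44) and the disulfide isomerases Pdia3 (0.51 and 0.38) and P4hb (0.47 and 0.35) rose under both stimuli. Calr, calreticulin, had 146 to 159 FPKM in LPS and 272 to 312 FPKM with DSF. It had 252 to 297 FPKM in IL-4+anti-CD40 and 407 to 419 FPKM with DSF. Hsp90b1, GRP94, had 67.0 to 71.6 FPKM in LPS and 121 to 138 FPKM with DSF. Within each stimulus, the libraries with DSF lay above those without for both genes. The co-chaperone Dnajb11 (-0.62 and -0.48), the ERAD genes Os9 (-0.67 and -0.47) and Sel1l (-0.56 and -0.47) and the chaperone Hyou1 (-0.44 and -0.55) fell under both. The promoters of Calr and Hsp90b1 are shown as examples of the ERSE also found at Hspa5. That of Calr reads on the opposite strand. Of the 14 ATF6 targets with a window, 7 held an ERSE and 1 an ERSE-II. In LPS, DSF raised 5 of the 7, lowered Dnajc3 (-0.15, adjusted p = 0.006235) and left Creld2 uncalled (-0.05, adjusted p = 0.55). In IL-4+anti-CD40 it raised Calr and Hsp90b1, and the other 5 did not pass. The share of all genes that DSF raised was 35.1% in LPS and 30.1% in IL-4+anti-CD40. Dnajb11, with the ERSE-II, fell under both.
Calr, ERSE: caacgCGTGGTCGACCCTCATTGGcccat
Hsp90b1, ERSE: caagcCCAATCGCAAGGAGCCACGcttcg

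They lie upstream of the genes at chr8:84847070-84847098 (minus strand) for Calr and chr10:86705633-86705661 (minus strand) for Hsp90b1.

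The difference between stimuli, tested gene by gene, was larger in LPS for 24 and smaller for 1 of 42 ATF4 targets (median 0.361, against 0.016 for all genes). It was larger for 1 and smaller for 3 of 28 XBP1 targets (median -0.053). For the ATF6 targets it was larger for 4 of 16 (median 0.149). These counts rested on the 16-library fit: with all 20 libraries in one fit, 1 ATF4 target and 1 ATF6 target passed as larger in LPS, and the share of all genes passing in that direction went from 7.92% to 1.32%. Named genes that passed in the 16-library fit were Slc3a2 (0.58), Cebpg (0.51), Calr (0.37) and Hsp90b1 (0.47).

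The sensors and the eIF2 machinery moved in a mixed way. DSF raised 7 and lowered 13 of 21 in LPS (median -0.314) and raised 5 and lowered 12 in IL-4+anti-CD40 (median -0.366). Among all genes tested it raised 35.1% and lowered 36.0% in LPS, and raised 30.1% and lowered 31.6% in IL-4+anti-CD40. Eif2ak3, which encodes PERK, rose by 1.09 and 1.17 on the log2 scale, from 8.09 to 9.28 FPKM in LPS to 17.9 to 19.0 FPKM with DSF. In unstimulated libraries it had 48.4, 48.7, 19.7 and 18.2 FPKM, so that every stimulated library, with or without DSF, was below those of unstimulated replicates 1 and 2. Ern1, which encodes IRE1, rose by 0.66 and 0.23, the β subunit of eIF2, Eif2s2, by 0.54 and 0.18, and Ppp1r15b, the constitutive partner of the eIF2α phosphatase, by 0.21 and 0.21. Ppp1r15b was at -0.002 in LPS with total counts. In IL-4+anti-CD40 the calls of Ern1 (adjusted p = 0.1207) and Eif2s2 (adjusted p = 0.1197) were lost without replicates 1 and 2 and without replicates 3 and 4, respectively. Both were also lost there with total counts (edgeR adjusted p = 0.4717 and 0.6742), with a replicate block and without some single libraries. The same held when all genes with a count were tested, and Eif2s2 lost its call with all 20 libraries in one fit (edgeR adjusted p = 0.1068). Atf6b, a paralog of Atf6, fell (-0.97 and -0.87), as did Oma1, the protease that relays mitochondrial stress to eIF2α (-0.93 and -0.80), and the eIF2B subunits Eif2b3 (-0.72 and -0.89) and Eif2b1 (-0.59 and -0.50). Ppp1r15a, the inducible phosphatase subunit, and Ppp1r15b thus rose by very different amounts.

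Markers of other cell types moved with DSF as well. The B cell markers fell in 6 of 6 genes in LPS and in 4 of 6 in IL-4+anti-CD40, where 1 rose. Of all genes tested, 36.0% were lower in LPS and 31.6% in IL-4+anti-CD40. The plasma cell list summed to 174 to 195 CPM in LPS and 225 to 259 CPM with DSF, and to 151 to 168 CPM in IL-4+anti-CD40 and 208 to 228 CPM with DSF, with Tnfrsf17 under 1 CPM throughout. Within this list, in LPS, Prdm1 (1.64) and Jchain (0.30) rose and Sdc1 fell (-0.74, log2 scale). In IL-4+anti-CD40 Prdm1 (0.94) and Jchain (0.36) rose and Sdc1 did not pass (0.0005). The myeloid list summed to 140.3 to 162 CPM in LPS and 137 to 148 CPM with DSF, and to 156 to 185 CPM in IL-4+anti-CD40 and 202 to 263 CPM with DSF. In LPS its member Itgam rose by 1.72, Csf1r (-0.23) and Clec9a (-0.98) fell, and Lyz2, Adgre1 and Cd14 did not pass (-0.09, -0.19 and -0.10). In IL-4+anti-CD40 Itgam (2.25), Cd14 (1.54) and Lyz2 (0.35) rose, and Csf1r, Adgre1 and Clec9a did not pass (0.16, 0.04 and -0.27). Of the T cell genes, Trac rose (1.95 in LPS and 1.32 in IL-4+anti-CD40), Lck fell (-0.28 and -0.37) and Cd8a fell in LPS (-1.41). The part of these shifts in the stress gene results was not tested.

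The stimuli by themselves also raised much of the pathway, in comparisons that share their LPS or IL-4+anti-CD40 libraries with the DSF comparisons above and their unstimulated libraries with each other. IL-4+anti-CD40 raised 9 of the 10 genes against unstimulated cells (62.5% of 14433 genes called, 30.4% higher and 32.1% lower). LPS raised 5, Atf4, Chac1, Asns, Ppp1r15a and Hspa5, and lowered Xbp1 (62.9% of 14477 genes called, 29.6% higher and 33.3% lower). With total counts the calls over all genes were 23.9% higher and 38.6% lower for IL-4+anti-CD40 and 20.1% higher and 44.1% lower for LPS. The median over all genes then moved from -0.041 to -0.191 and from -0.046 to -0.273.

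Hspa5 rose 3.11-fold with LPS (log2 fold change 1.64 ± 0.08, edgeR adjusted p = 1.041e-06) and 3.38-fold with IL-4+anti-CD40 (1.76 ± 0.09, adjusted p = 1.54e-06). Atf4 rose 2.01-fold (adjusted p = 6.281e-06) and 2.37-fold (adjusted p = 4.439e-06). Xbp1 went in opposite directions, 0.673-fold with LPS (log2 fold change -0.57 ± 0.06, adjusted p = 3.886e-05) and 2.25-fold with IL-4+anti-CD40 (1.17 ± 0.07, adjusted p = 2.317e-06). These 3 genes kept their direction and call without either pair of unstimulated libraries. For Herpud1 the rise in IL-4+anti-CD40 was 0.97 ± 0.08 (adjusted p = 1.151e-05). Its LPS value of 0.13 ± 0.07 did not pass (adjusted p = 0.1376), although it did without unstimulated replicates 1 and 2 (0.23, adjusted p = 0.001091).

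Ppp1r15a rose with LPS by 1.73 ± 0.07 (log2 scale, edgeR adjusted p = 4.058e-07) and Asns by 1.00 ± 0.24 (adjusted p = 0.005645). Unstimulated replicates 1 and 2 had 0.925 times the mean Ppp1r15a and 1.89 times the mean Asns of replicates 3 and 4. The size of the Chac1, Trib3, Atf3 and Ddit3 responses varied with the pair of unstimulated libraries used. Chac1 rose with LPS by 2.33 ± 0.63 on the log2 scale (edgeR adjusted p = 0.01096), by 4.58 without unstimulated replicates 1 and 2 and by 1.501 without replicates 3 and 4. Trib3 had 1.81 ± 0.74 with LPS (adjusted p = 0.05832), which passed when either pair was left out (4.56 and 0.94) and without unstimulated replicate 1 or 2 alone (2.32 and 2.26, adjusted p = 0.03145 and 0.03685). Atf3 did not pass with LPS (1.53 ± 0.76, adjusted p = 0.1095) and passed without either pair (4.33 and 0.64). With IL-4+anti-CD40 Atf3 (1.31 ± 0.79, adjusted p = 0.1768) passed only without replicates 1 and 2 (4.09, adjusted p = 1.439e-05), and was 0.39 (adjusted p = 0.2646) without replicates 3 and 4. Ddit3 turned direction with LPS, from -0.10 ± 0.19 (adjusted p = 0.6783) to 0.34 without replicates 1 and 2 (adjusted p = 0.006043), and was -0.41 without replicates 3 and 4 (adjusted p = 0.0001439). With IL-4+anti-CD40 Ddit3 rose by 1.38 ± 0.21 (adjusted p = 0.0003903), Trib3 by 2.97 ± 0.74 (adjusted p = 0.006719) and Chac1 by 3.60 ± 0.63 (adjusted p = 0.0009556), each also without either unstimulated pair, although Trib3 did not pass without IL-4+anti-CD40 replicates 1 and 2 (2.91, adjusted p = 0.052). For Trib3 and Chac1 the values without replicates 1 and 2 were 5.71 and 5.84, and without replicates 3 and 4 they were 2.07 and 2.75. In all, LPS raised 9 of the 10 genes without replicates 1 and 2 (75.6% of all genes tested called, 36.9% higher and 38.8% lower). Without replicates 3 and 4 it raised 7 (67.9% called, 33.2% higher and 34.7% lower).

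Of the other ATF4 targets, LPS raised 29 and lowered 3 of 42 (median 1.073), and IL-4+anti-CD40 raised 33 of 41 (median 1.609). Of 28 XBP1 targets 12 rose with LPS and 4 fell, while the T-dependent stimulus raised 17 and lowered 6. Of 16 ATF6 targets 4 rose with LPS and 7 fell, while the T-dependent stimulus raised 11 and lowered 1. With total counts 1 rose and 12 fell with LPS. The LPS count of 7 was 4 without LPS replicate 1, and the IL-4+anti-CD40 count of 1 was 4 without unstimulated replicate 1 or 2, and 4 with total counts. Without unstimulated replicates 1 and 2, LPS raised 19 XBP1 targets (36.9% of all genes tested higher), and without replicates 3 and 4 it lowered 7 ATF4 targets (34.7% lower).

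Against unstimulated cells, all 10 genes were higher with LPS+DSF (71.6% of 14663 genes called, 34.3% higher and 37.3% lower) and with IL-4+anti-CD40+DSF (68.7% of 14678 genes called, 33.4% higher and 35.3% lower). With total counts the calls over all genes were 21.5% higher and 50.8% lower, and 21.2% higher and 46.1% lower. Atf3 was 20.5-fold higher with LPS+DSF (log2 fold change 4.36 ± 0.85, edgeR adjusted p = 0.001388), and 7.14 without unstimulated replicates 1 and 2 or 3.43 without replicates 3 and 4 on the log2 scale. Ppp1r15a was 7.71-fold higher (2.95 ± 0.08, adjusted p = 2.7e-08), Hspa5 4.32-fold (2.11 ± 0.09, adjusted p = 2.453e-07) and Ddit3 3.69-fold (1.88 ± 0.19, adjusted p = 2.663e-05). Xbp1 was the smallest at 0.16 ± 0.06 (adjusted p = 0.04177). Its call was lost without any 1 unstimulated library or without LPS+DSF replicate 2, 3 or 4 (adjusted p from 0.07832 to 0.1466), and with total counts the value turned to -0.25 (adjusted p = 0.007606). With IL-4+anti-CD40+DSF the largest fold was that of Atf3 (13.7-fold, adjusted p = 0.002893), followed by Chac1 (13.01-fold, adjusted p = 0.00068) and Trib3 (9.92-fold, adjusted p = 0.003322), and their sizes too depended on the pair of unstimulated libraries used (log2 2.86 to 6.56 for Atf3, 2.85 to 5.94 for Chac1 and 2.40 to 6.05 for Trib3).

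Experiment 2 held DSF and ibrutinib side by side at the same dose and time, with no replicates and hence no test. Ratios between libraries are given on the log2 scale after TMM scaling with a prior count of 2, and a 2-fold ratio marks a call. DSF raised 5 of the 10 genes 2-fold or more in LPS (39.8% of 14275 genes called, 20.3% higher and 19.5% lower) and 3 in IL-4+anti-CD40 (42.2% called, 21.9% higher and 20.3% lower). With ibrutinib the 10 log2 ratios lay between -0.62 and 0.32 in LPS (5.28% of genes called, 2.81% higher and 2.47% lower) and between -0.82 and 0.15 in IL-4+anti-CD40 (3.92% called, 2.23% higher and 1.69% lower), so that no gene of the 10 reached 2-fold.

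Atf3 was at 20.1 FPKM in LPS, 414 FPKM with DSF and 12.9 FPKM with ibrutinib, and at 20.01, 340.0 and 11.3 FPKM in the same order in IL-4+anti-CD40. Ddit3 was at 12.6, 78.5 and 11.9 FPKM in LPS and 23.6, 91.9 and 23.0 FPKM in IL-4+anti-CD40. Ppp1r15a was at 85.1, 321 and 105 FPKM in LPS and 64.2, 275 and 71.0 FPKM in IL-4+anti-CD40. For these 3 genes the library with DSF was the highest under both stimuli and the library with ibrutinib was near the one without inhibitor or, for Atf3, below it. The log2 ratios by DSF were 4.37 in LPS and 4.09 in IL-4+anti-CD40 for Atf3, 2.63 and 1.97 for Ddit3 and 1.92 and 2.11 for Ppp1r15a, each larger than in experiment 1. Chac1 (1.35 in LPS and 0.54 in IL-4+anti-CD40) and Xbp1 (1.32 and 0.35) reached 2-fold in LPS only.

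Chac1 was at 11.8 FPKM in LPS, 29.98 FPKM with DSF and 9.13 FPKM with ibrutinib, and at 20.9, 30.1 and 17.3 FPKM in IL-4+anti-CD40. Xbp1 was at 19.6, 48.6 and 18.9 FPKM in LPS and 47.0, 59.6 and 50.5 FPKM in IL-4+anti-CD40. In LPS both sat higher with DSF and at about the uninhibited level with ibrutinib. Trib3 was at 13.1, 22.5 and 11.01 FPKM in LPS and 24.2, 28.8 and 22.9 FPKM in IL-4+anti-CD40. Herpud1 was at 88.5, 126 and 86.0 FPKM in LPS and 96.2, 120 and 91.1 FPKM in IL-4+anti-CD40. Atf4 was at 215, 296 and 210 FPKM in LPS and 253, 297 and 230 FPKM in IL-4+anti-CD40. These 3 had their highest library with DSF under both stimuli. Asns was lower with DSF than without under both stimuli (8.59 and 5.85 FPKM in LPS, 12.7 and 7.13 FPKM in IL-4+anti-CD40), where it had 7.14 and 9.57 FPKM with ibrutinib. Hspa5 went from 240 to 311 FPKM with DSF in LPS and from 368 to 283 FPKM in IL-4+anti-CD40, and was at 186 and 291 FPKM with ibrutinib. In the single unstimulated library Atf3 had 8.83, Trib3 5.45 and Chac1 3.25 FPKM. Against it, Atf3, Trib3, Chac1, Asns, Ppp1r15a and Hspa5 were 2-fold higher or more with LPS (18.5% of genes called, 8.62% higher and 9.88% lower) and with the T-dependent stimulus (24.4% called, 10.7% higher and 13.7% lower), 6 of the 10 each time.

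**Figure D4:**
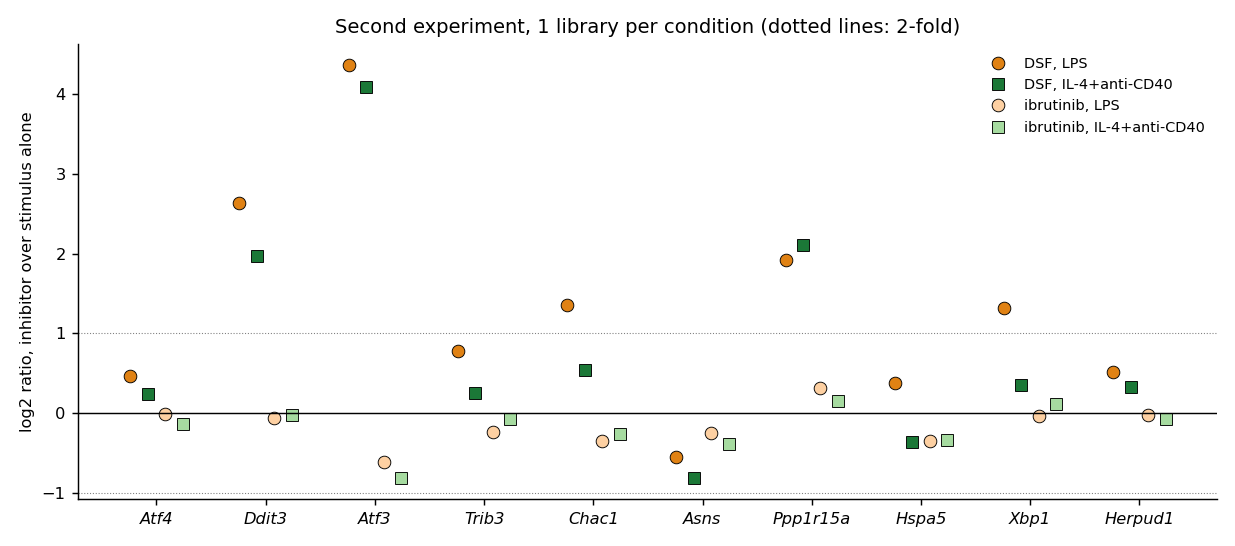
Log2 ratios of the 10 genes in experiment 2 (y axis; 1 library per condition, no test) for DSF and ibrutinib, each against the same stimulus without inhibitor. Dotted lines mark 2-fold. Atf3 with DSF reached 4.37 in LPS and 4.09 in IL-4+anti-CD40, and the lowest ibrutinib ratio was -0.82, also for Atf3.

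The lists were mixed in experiment 2 as well. With DSF, 11 of 41 ATF4 targets were 2-fold higher and 4 lower in LPS (median -0.151), and 6 were higher and 13 lower in IL-4+anti-CD40 (median -0.557). Over all genes, 20.3% were 2-fold higher and 19.5% lower in LPS, and 21.9% higher and 20.3% lower in IL-4+anti-CD40. Among 28 XBP1 targets 3 were higher and 3 lower under each stimulus. Of 16 ATF6 targets, 1 was higher and 3 were lower in LPS, and 3 were lower in IL-4+anti-CD40. The median ATF4 target was thus below 0 in LPS here and above it in experiment 1. Dnajb9 had 18.9 FPKM in LPS and 260.1 FPKM with DSF, against 17.6 FPKM with ibrutinib, and Slc3a2 had 66.0, 388 and 50.3 FPKM in that order. Slc7a11 did not reach 2-fold with DSF (log2 ratio 0.25 in LPS and 0.57 in IL-4+anti-CD40). With ibrutinib no gene of the ATF4, XBP1, ATF6 or sensor lists reached 2-fold under either stimulus. Over all genes, 5.28% reached it in LPS and 3.92% in IL-4+anti-CD40.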

How the data were processed

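The deposited files hold read counts per gene (whole numbers) and FPKM values for each library. Per the submitters' processing notes, the authors used HISAT2 2.0.5, featureCounts 1.5.0-p3 and mm10, and the gene positions equal those of GENCODE vM21. The library protocol in the labels allows for directional or non-directional libraries, and the strand setting of the counting is not given in the sources used here. Cell numbers per well differ between the labels and the study's methods. The authors' FPKM values, normalized by gene length and depth, served for levels within and between genes and were not tested. Counts were tested with edgeR 4.0.16 (R 4.3.3): TMM, filterByExpr and the quasi-likelihood test on the 8 libraries of each comparison of experiment 1, on 16 libraries for the interaction, with Benjamini-Hochberg adjustment over all genes tested and a threshold of 0.05. Scripts were tested on simulated data. Experiment 2 (7 libraries) was described by ratios over genes whose counts averaged 10 or more. All 10 genes were named. From each target list and the sensors, up to 4 genes per direction were named, called with the same sign in both DSF comparisons and ranked by the smaller absolute change. The genes and lists were chosen with earlier results of these data known. Of the listed genes, Cbs, Fgf21, Stc2, Vldlr and Kdelr3 did not pass the filter on low counts. Alternatives were DESeq2 1.42.0, total counts, all genes with a count, all 20 libraries in one fit, a replicate block and leaving out libraries. Leaving out pairs of unstimulated or IL-4+anti-CD40 libraries, and the alternatives for list counts in the stimulus comparisons, the interaction and the sensors, were chosen after seeing the data.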

Additional observations from a re-analysis of the deposited data

Results flagged for a closer look

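A library stood apart from the other 3 of its group in 5 of the 210 groups of 4 tested over the 10 genes and the other named genes, where chance gives about 1 in 20. These were Xbp1 in IL-4+anti-CD40+DSF replicate 4 (65.8 FPKM, others 68.1 to 68.3), P4hb in LPS replicate 3 (66.36 FPKM, others 62.2 to 62.4), Atf6b in unstimulated replicate 3 (37.59 FPKM, others 34.9 to 35.1), Oma1 in IL-4+anti-CD40+DSF replicate 2 (3.308 FPKM, others 2.58 to 2.70) and Eif2b1 in IL-4+anti-CD40+DSF replicate 4 (10.35 FPKM, others 12.4 to 12.6).

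The DSF response differed between stimuli by the interaction test, larger in LPS, for Xbp1 (0.7973 on the log2 scale), Ddit3 (0.759), Chac1 (0.58), Hspa5 (0.4208), Herpud1 (0.4186), Slc3a2 (0.5799), Cebpg (0.5064), Hsp90b1 (0.4673), Ern1 (0.4257), Calr (0.3714) and Eif2s2 (0.3626). With all 20 libraries in one fit Ddit3, Chac1, Slc3a2, Calr, Ern1 and Eif2s2 no longer passed.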

How the results depend on the processing

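Most of the counts over the 10 genes and the lists (750 of the recomputed values) stayed within 1.5 times of those reported, and 78 moved. With total counts, in IL-4+anti-CD40 the DSF values turned to -0.0546 for Chac1 and -0.0729 for Hspa5. In LPS they turned to -0.0412 for Asns and -0.002 for Ppp1r15b, and Herpud1 with LPS against unstimulated turned to -0.10 and Xbp1 with LPS+DSF to -0.25. Xbp1 with DSF in IL-4+anti-CD40 turned to 0.0131 with all 20 libraries in one fit. Ddit3 with LPS against unstimulated turned to 0.0294 and 0.0504 without unstimulated replicate 1 or 2 and to 0.34 without both (lowest -0.2373, without replicate 3). For the stimulus difference, Atf3 turned to -0.006 without IL-4+anti-CD40 replicates 3 and 4 and Ppp1r15a to 0.0305 without replicates 1 and 2 (leaving out 1 library gave 0.1034 to 0.5362 and -0.1811 to -0.0349). The causes were not tested. Over the single-gene results, 59 calls were lost and 22 gained, counted over all alternatives.

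By setting, DESeq2 gave 0 members lower with DSF in IL-4+anti-CD40 (1 in the report), 1 ATF4 target lower with IL-4+anti-CD40, and for the stimulus difference 5 XBP1 targets and 1 ATF6 target smaller in LPS. Total counts gave 2 members lower with DSF in IL-4+anti-CD40 and 1 with LPS+DSF. With DSF in LPS they gave 14 ATF4 and 19 XBP1 targets lower and 5 ATF6 targets and 3 sensors higher, and with DSF in IL-4+anti-CD40 15 XBP1 targets lower and 2 sensors higher. They gave 8 XBP1 and 12 ATF6 targets lower and 1 ATF6 target higher with LPS, 1 ATF4 and 4 ATF6 targets lower with IL-4+anti-CD40, and for the stimulus difference 0 XBP1 targets larger, and 6 XBP1 and 1 ATF6 target smaller. In experiment 2 they gave 1 member 2-fold lower with DSF in IL-4+anti-CD40. All genes with a count gave 0 members lower and 3 sensors higher with DSF in IL-4+anti-CD40, and 3 ATF4 targets smaller and 0 XBP1 targets larger for the stimulus difference. All 20 libraries in one fit gave 0 members lower with DSF in IL-4+anti-CD40, 9 ATF4 targets higher, 9 lower and 4 XBP1 targets lower there (29.2% of all genes higher and 24.1% lower). In LPS they gave 15 ATF4 and 4 ATF6 targets higher and 4 ATF4 targets lower. With IL-4+anti-CD40 they gave 1 ATF4 and 5 ATF6 targets lower, and for the stimulus difference 3 members, 1 ATF4, 0 XBP1 and 1 ATF6 target larger.

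Same-numbered libraries did not deviate together in every pair (correlations of 0.169, -0.0404, -0.0222 and 0.147 for DSF in IL-4+anti-CD40, and 0.0182, -0.056, -0.0136 and 0.0302 in LPS), so the number was not taken as a pairing. With a replicate block, 0 members were lower and 3 sensors higher with DSF in IL-4+anti-CD40, 6 members rose with LPS, and 58.1%, 71.0% and 59.3% of all genes were called for LPS, DSF in LPS and DSF in IL-4+anti-CD40.

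Leaving out 1 library at a time gave 0 to 1 members lower and 3 to 5 sensors higher with DSF in IL-4+anti-CD40, 4 to 7 ATF6 targets lower with LPS, 0 to 1 ATF4 and 1 to 4 ATF6 targets lower with IL-4+anti-CD40, and for the stimulus difference 1 to 3 ATF4, 2 to 5 XBP1 and 0 to 1 ATF6 targets smaller and 0 to 1 XBP1 targets larger. Without unstimulated replicates 1 and 2, 9 members and 19 XBP1 targets rose with LPS (36.9% of all genes), and 1 ATF4 and 5 ATF6 targets fell with IL-4+anti-CD40 (36.2% of all genes). Without replicates 3 and 4, 2 members and 7 ATF4 targets fell with LPS (34.7% of all genes) and 2 ATF4 targets with IL-4+anti-CD40 (31.2% of all genes). Without IL-4+anti-CD40 replicates 1 and 2, or 3 and 4, DSF lowered 0 members and 4 or 14 XBP1 targets there, and the stimulus difference was larger in LPS for 2 and smaller for 7 or 5 XBP1 targets. Without 1 and 2 it was smaller for 2 ATF6 targets, and without 3 and 4 for 3 ATF4 targets, where IL-4+anti-CD40 lowered 1 ATF4 and 0 ATF6 targets.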
